A study of Mus musculus with 16 samples.

Results

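Vesicle traffic genes encode the coats, small GTPases, tethers and pumps that move membrane and cargo between the endoplasmic reticulum (ER), the Golgi, the cell surface and the lysosome. They were chosen here by gene symbol alone: every gene whose probes carry a single symbol beginning with Tmed, Sec and a digit, Copa, Copb, Copg or Copz, Rab and a digit, Vps, Snx, Ap1 to Ap4 with a subunit letter, or Atp6v. This gave 137 genes of the 7114 named genes on the arrays. Symbol patterns, set by the known site of action of the products, made 34 early secretory and 88 endolysosomal and left 15 in neither class. The last 15 were mostly Rabs of secretory vesicles and Rab partners, and included Vps72, which shares the prefix but encodes a chromatin protein.

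The series title names Met mutations in MEFs, which commonly stands for mouse embryonic fibroblasts. It measured total RNA of mouse cells labelled WT and M833 on two-colour arrays. Each cell type had 8 arrays, on which the cell sample was hybridised against a common reference RNA, with the sample in Cy5 on replicates 1 to 4 and in Cy3 on replicates 5 to 8. The meaning of M833, the Met allele it carries, the make-up of the reference and the age or strain of the embryos are not in the labels. Nor do the labels tie arrays to cultures, so that a p-value here sets a difference against the spread of these arrays, which may be technical. Values are log2 ratios of sample to reference, a direction that is likely but not stated. Turned round, every sign and every order by the ratio to the reference given below would turn with it.

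Proteins bound for secretion enter the ER through the Sec61 channel, leave it in COPII-coated vesicles, and are returned from the Golgi in COPI-coated vesicles, with p24 proteins of the Tmed family acting as cargo receptors in both directions. Beyond the Golgi, adaptor protein (AP) complexes and sorting nexins select cargo, Rab GTPases mark each membrane, the HOPS and CORVET tethers bring endosomes and lysosomes together, and the V-ATPase proton pump acidifies them. Fibroblasts use the early steps heavily to export collagen, and receptor tyrosine kinases such as Met pass through the endosomal steps after activation.

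Early secretory genes were lower in M833 than in WT more often than they were higher. Of the 34 genes 16 fell (47.1%) and 2 rose, with 16 not past the test (limma with dye orientation in the model, Benjamini-Hochberg adjusted p under 0.05 over all 12761 features). Over all features 25.9% passed this test, 15.9% lower and 10.0% higher in M833. The median log2 difference (M833 minus WT) was -0.14 over the 34 genes and -0.03 over all features, and 27 of the 34 had a negative difference. Of the 88 endolysosomal genes 18 fell (20.5%), 6 rose and 64 did not pass, with a median of -0.08. The share of endolysosomal genes that fell was near that of all features, and whether the classes differ was not tested. All 137 genes together held 39 that fell (28.5%) and 9 that rose (6.57%), with a median of -0.09.

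**Figure D1:**
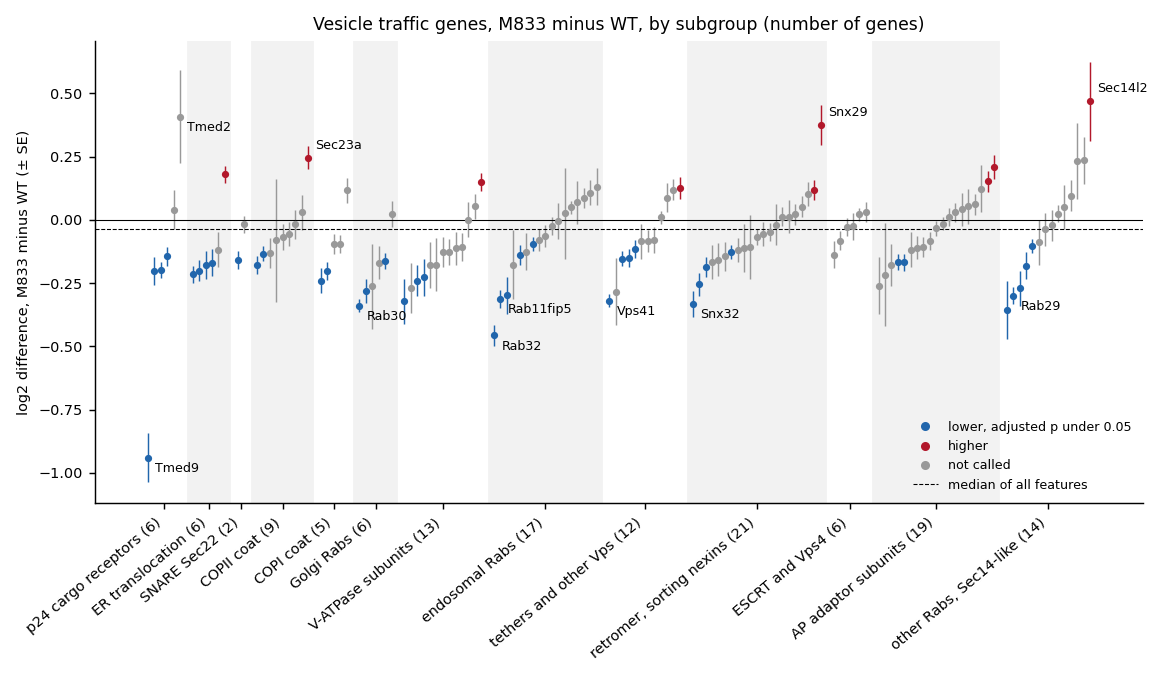
Log2 difference (M833 minus WT, vertical axis, with SE) of the 137 vesicle traffic genes other than Vps72, 1 point per gene, in columns by subgroup with the number of genes. Points are coloured by call in limma and the dashed line marks the median of all features at -0.03. Tmed9 lies far below the other genes at -0.94, and most other called genes lie within 0.5 of 0.

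**Figure D2:**
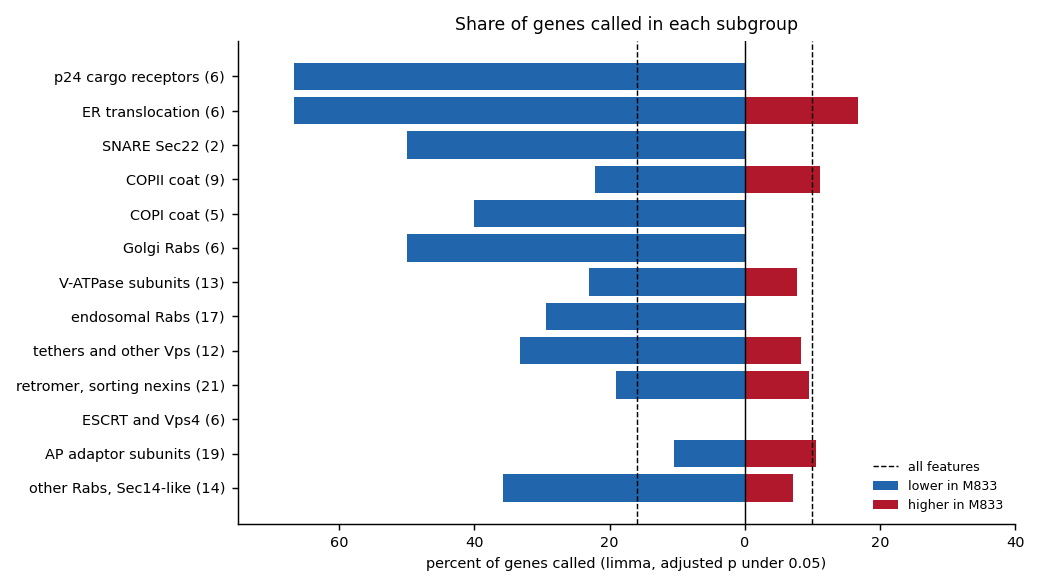
Percent of the genes of each subgroup called lower or higher in M833 (limma, adjusted p under 0.05), beside the same shares of all features. The p24 cargo receptors and the ER translocation genes have the highest shares called lower, both 66.7%, against 15.9% of all features.

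Most differences were small, and the arrays of the cell types overlapped for most genes. In 21 members all 4 M833 arrays lay below all 4 WT arrays in both dye orientations, and in 1 member (Sec23a) they lay above, where the background over all features is 6.49% and 4.01%. In 6 members, Rab30, Rab32, Rab11fip5, Snx32, Vps41 and Vps8, all 8 M833 arrays lay below all 8 WT arrays whatever the dye, and in 0 members above, against 2.77% and 1.82% of all features. WT replicates 1, 2, 5 and 6 deviated together from WT replicates 3, 4, 7 and 8, with a median correlation over features of 0.458 between residuals of arrays of one set and -0.308 between sets. In M833 these values were -0.129 and -0.231, so that its sets stood less apart. WT pairs of one set ran from -0.39 to 0.70, and pairs between sets from -0.79 to -0.02. Residuals sum to 0 within a cell type, which by itself pulls such correlations below 0. The sets were chosen with earlier results of these data known, so these values describe the sets and do not test them. Called members whose call rests on a WT set are given below with and without it. Of the 89 members that did not pass, 44 were called when one or the other WT set was left out, and 5 of these (Ap1g1, Rab5a, Sec23ip, Sec24a and Snx21) in opposite directions. Calls over all features rose too, from 15.9% lower and 10.0% higher. They were 20.1% and 13.8% without WT replicates 1, 2, 5 and 6, and 21.8% and 14.5% without the other 4 WT arrays. The share of uncalled features that gained a call was not taken, so these counts are not particular to the members. With sets of 4 arrays as a random block, 11 early secretory genes fell and 2 rose, and 13 endolysosomal genes fell and 2 rose, against 7.08% of all features lower and 4.40% higher.

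Among the p24 cargo receptors 4 of 6 fell, none rose, and the median was -0.17. Tmed9, a p24 protein of the ER-Golgi boundary, showed the largest difference of all 137 genes. Its log2 ratio had a lowest, median and highest value of -1.26, -0.63 and -0.10 in WT and of -1.95, -1.61 and -1.22 in M833. The ranges touched only through the dye: within Cy5 arrays WT ran from -0.64 to -0.10 and M833 from -1.42 to -1.22, and within Cy3 arrays WT ran from -1.26 to -0.61 and M833 from -1.95 to -1.80. The difference of -0.94 ± 0.10 (SE, n = 8 arrays per cell type, as in all errors below) made WT 1.92-fold higher than M833 (adjusted p = 5.7e-06, limma). Leaving out WT replicates 1, 2, 5 and 6 gave -0.69, and leaving out the other 4 WT arrays gave -1.19. The early secretory counts do not turn on this gene, since 15 of the other 33 fell, with a median of -0.13.

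The other p24 genes moved by far less. Tmed4 ran from 0.17 to 0.50 (median 0.34) in WT and from -0.01 to 0.28 (median 0.14) in M833, and fell by 0.20 ± 0.03 on the log2 scale. Tmed7, at -0.20 ± 0.06, and Tmed10, at -0.14 ± 0.04, also fell. The calls of both were lost with the sets as a random block (adjusted p = 0.204 and 0.127, limma), that of Tmed7 also when WT replicates 3, 4, 7 and 8 were left out (adjusted p = 0.0721) and that of Tmed10 also when the other WT arrays were (adjusted p = 0.0882). Tmed2, which pairs with Tmed10 in p24 complexes, did not pass the test at 0.41 ± 0.18 (adjusted p = 0.12, limma). Its WT arrays lay between -0.41 and 0.01, while its M833 arrays spread from -0.35 to 1.34. Tmed5 was at 0.04, with a confidence interval (95%) of -0.13 to 0.21.

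Of 6 genes of ER translocation and signal peptide removal 4 fell and 1 rose. Sec61g, the small gamma subunit of the channel, fell by 0.22 ± 0.04, with lowest, median and highest values of -0.24, 0.10 and 0.52 in WT and -0.40, -0.08 and 0.29 in M833. These ranges overlap, but within each dye orientation the arrays lay apart. Sec62, which helps post-translational import, fell by 0.20 ± 0.04, from a WT median of 0.68 to an M833 median of 0.43. Sec63, the partner of Sec62 that recruits the chaperone BiP, was at -0.18 ± 0.06, and Sec11c, a catalytic subunit of signal peptidase, at -0.17 ± 0.05. These last 2 decreases rest on WT replicates 3, 4, 7 and 8: without them Sec63 was at -0.04 (adjusted p = 0.335, limma) and Sec11c at -0.08 (adjusted p = 0.269). On those 4 WT arrays Sec63 ran from 0.47 to 0.60, above the 0.21 to 0.32 of the other WT arrays and the 0.15 to 0.33 of the M833 arrays. Both calls were also lost with the sets as a random block (adjusted p = 0.0988 and 0.171) and without WT replicate 3, 7 or 8 (adjusted p from 0.0503 to 0.0559, limma). The 2 channel isoforms did not move together. Sec61a2 rose by 0.18 ± 0.04, from a WT median of -0.24 to an M833 median of -0.03, while Sec61a1 was at -0.12 with an interval of -0.26 to 0.03.

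In the COPII coat 2 of 9 genes fell and 1 rose. Sec31a, of the outer cage, had the highest ratio to the reference among early secretory genes, with WT arrays from 0.84 to 1.12 (median 0.98) and M833 arrays from 0.65 to 0.94 (median 0.79). It fell by 0.18 ± 0.04. Sec24c, a cargo-binding subunit, fell by 0.13 ± 0.03, a call lost with the sets as a random block (adjusted p = 0.0929, limma). Sec23a, of the inner coat, rose by 0.25 ± 0.05, from a range of -0.56 to -0.01 (median -0.34) in WT to one of -0.40 to 0.20 (median 0.01) in M833. Its close relative Sec23b was at -0.07, with an interval of -0.17 to 0.04. The outer-cage subunit Sec13 (-0.13) and the scaffold gene Sec16a (-0.06) did not pass, and neither did Sec24a (-0.02), Sec23ip (0.03) or Sec24d, whose interval ran from -0.60 to 0.43 and which had 1 WT array at -1.11. Sec24a and Sec23ip were called in opposite directions by WT set, at -0.15 (adjusted p = 0.00522, limma) and -0.13 (adjusted p = 0.0451) without WT replicates 1, 2, 5 and 6 and at 0.12 (adjusted p = 0.0223) and 0.19 (adjusted p = 0.0148) when the other 4 WT arrays were left out.

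In the COPI coat 2 of the 5 genes that meet the naming rule fell and none rose. Copg1, the main gamma subunit, ran from 0.62 to 0.95 (median 0.72) in WT and from 0.27 to 0.80 (median 0.55) in M833, and fell by 0.24 ± 0.05. Copa, the alpha subunit, fell by 0.20 ± 0.04. With log ratios scaled between arrays neither was called, at -0.12 (adjusted p = 0.0706, limma) for Copg1 and -0.07 (adjusted p = 0.255) for Copa. The same scaling ended the calls of Sec31a (-0.02), Sec62 (-0.09), Sec63 (-0.12) and Sec22a (-0.09), so that 10 of the 16 decreases remained, while 16.8% of all features were called lower and 9.94% higher. Copg2, the second gamma subunit, had the lowest ratio to the reference of the class in WT, at -1.31, and a difference of 0.12 that did not pass. Copb2 (-0.10) and Copz1 (-0.09) did not pass either.

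Of 6 Rabs of the ER-Golgi and Golgi steps 3 fell and none rose, with a median of -0.22. Rab30, a Golgi Rab, gave the tightest difference among early secretory genes. All 8 WT arrays lay between -0.09 and 0.00 and all 8 M833 arrays between -0.50 and -0.28, with medians of -0.04 and -0.35. The decrease of 0.34 ± 0.03 had an adjusted p of 6.1e-07 (limma), and was -0.34 without either set of WT arrays. Rab18, of the ER and lipid droplets, fell by 0.28 ± 0.05, from a WT median of 0.64 to an M833 median of 0.34, and Rab2a, of ER-Golgi traffic, by 0.16 ± 0.03. Rab2a was at -0.10 without WT replicates 3, 4, 7 and 8 and stayed called. Rab1a and Rab1b, which act in ER-to-Golgi transport, were at -0.17 and -0.26 and did not pass. Rab1b was at -0.14 without WT replicate 2, which lay at 1.23, and at -0.14 without M833 replicate 2, which lay at -0.64, and the median of the group was then -0.18 and -0.16. Rab1a reached -0.33 when WT replicates 1, 2, 5 and 6 were left out and -0.01 when the other WT arrays were. Rab6a, of retrograde Golgi traffic, was at 0.02. Of the SNARE-related Sec22 genes, Sec22a fell by 0.16 ± 0.03 and Sec22b was at -0.02.

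**Figure D3:**
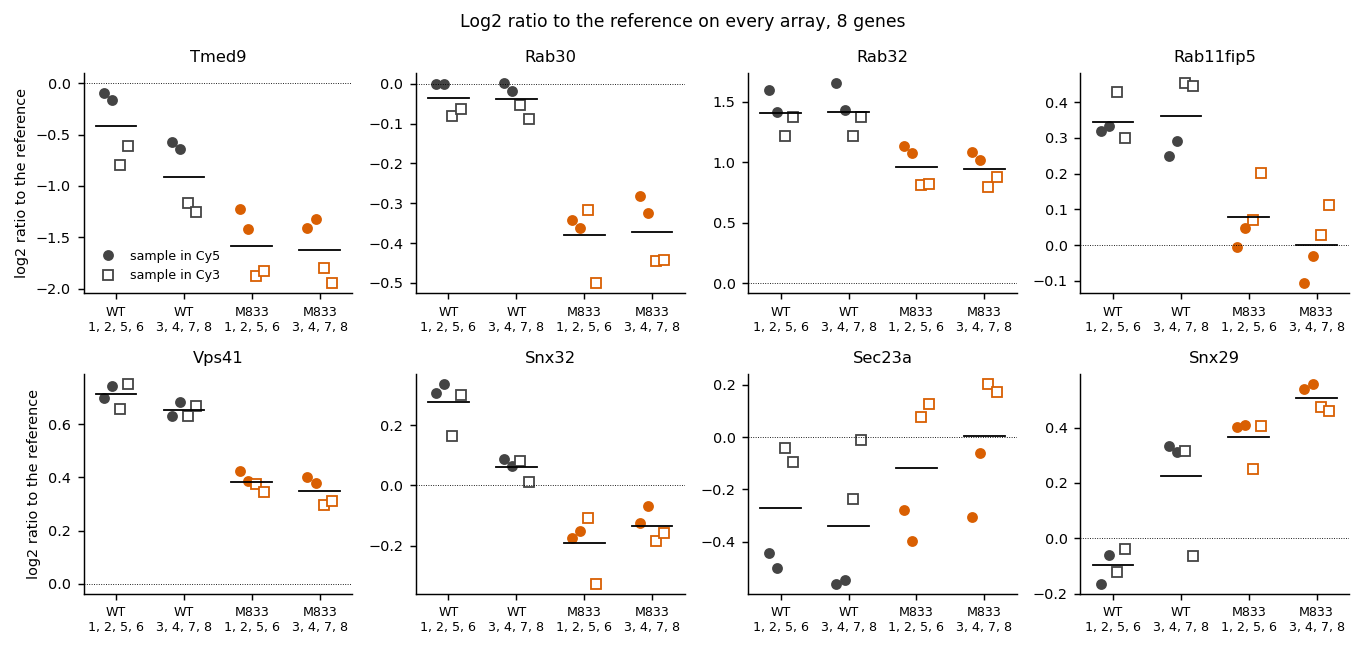
Log2 ratio to the reference (vertical axis) of 8 genes on all 16 arrays, 1 point per array, in columns by cell type and set of replicates, with symbols by the dye of the sample. Rab30 lies between -0.09 and 0.00 on every WT array and between -0.50 and -0.28 on every M833 array. Vps41 lies at 0.63 or above in WT and at 0.43 or below in M833.

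Among 17 endosomal Rabs and Rab11 effectors 5 fell and none rose, with a median of -0.06. Rab32, which works in the biogenesis of lysosome-related organelles and at mitochondria, had the highest ratio to the reference of the endolysosomal class. It ran from 1.21 to 1.65 (median 1.40) in WT and from 0.79 to 1.14 (median 0.95) in M833, with no overlap. It fell by 0.46 ± 0.04, which made WT 1.37-fold higher (adjusted p = 1.5e-06, limma). Scaling between arrays brought it to -0.24, still called. Rab11fip5, an effector of Rab11 in recycling, ran from 0.25 to 0.45 in WT and from -0.11 to 0.20 in M833, and fell by 0.31 ± 0.03. Rab11a and Rab11b themselves, the Rabs of recycling endosomes, were at -0.14 ± 0.04 and -0.10 ± 0.03. Both of these calls were lost with the sets as a random block (adjusted p = 0.181 and 0.178, limma), and they also need WT replicates 1, 2, 5 and 6 (adjusted p = 0.117 and 0.154 in their absence). Rab21, an early endosomal Rab of integrin traffic, was lower by 0.30 ± 0.07, but took separate levels within WT. It ran from 0.69 to 0.79 on WT replicates 3, 4, 7 and 8, from 0.28 to 0.46 on the other WT arrays and from 0.08 to 0.41 in M833, so that the difference was -0.12 without the first of these sets and -0.47 without the other, called in both. The call of Rab21 was lost without M833 replicates 1, 2, 5 and 6 (adjusted p = 0.0564, limma) and without the other 4 M833 arrays (adjusted p = 0.0953). Over all features 1685 and 1858 were called in these fits, against 3301 on all arrays. The main Rabs of early and late endosomes did not pass: Rab5a had a difference of 0.00 (interval -0.16 to 0.15) and Rab7 one of -0.13 (interval -0.28 to 0.03). These values join unlike WT sets: without WT replicates 1, 2, 5 and 6 Rab5a was at -0.19 and Rab7 at -0.31, both called lower, and when the other 4 WT arrays were left out Rab5a was at 0.18, called higher, and Rab7 at 0.06, not called. The other 10 did not pass either and ran from -0.18 in Rab38 to 0.13 in Rab17.

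Among the tethers, the narrowest ranges were those of Vps41 and Vps8. Vps41, a subunit of HOPS and not of CORVET, ran from 0.63 to 0.75 (median 0.68) in WT and from 0.29 to 0.43 (median 0.38) in M833. It fell by 0.32 ± 0.03 (adjusted p = 8.7e-07, limma), with its 3 probes between -0.38 and -0.21. Vps8, a subunit of CORVET and not of HOPS, ran from 0.12 to 0.24 in WT and from -0.03 to 0.11 in M833, without overlap, and fell by 0.15 ± 0.03. Vps33a, of the core that both complexes share, fell by 0.15 ± 0.03, and was at -0.11 without WT replicates 3, 4, 7 and 8 (adjusted p = 0.0529, limma). The shared subunits Vps11 (0.01) and Vps16 (0.09) did not pass, and Vps39 at -0.28 had an interval of -0.57 to 0.00. Thus 3 of the 6 HOPS and CORVET genes fell, as did 3 under the random block. Of the other 6 genes in this group Vps45, which binds endosomal syntaxins, was at -0.11 ± 0.04 and Vps51, of the GARP and EARP tethers, at 0.13 ± 0.04. Both calls were lost with the sets as a random block (adjusted p = 0.201 and 0.218, limma) and without any one of 5 arrays for Vps45 or of 11 for Vps51. Vps45 was at -0.06 without WT replicates 1, 2, 5 and 6 (adjusted p = 0.261, limma). Vps51 was at 0.04 without WT replicates 3, 4, 7 and 8 (adjusted p = 0.35, limma). Vps54, also of GARP, was at 0.12, just short of the threshold, Vps50 at -0.08, and the lipid transfer genes Vps13b and Vps13d both at -0.08.

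Among 21 retromer, retriever and sorting nexin genes 4 fell and 2 rose. Snx32, an endosomal sorting nexin related to Snx6, ran from 0.01 to 0.34 (median 0.13) in WT and from -0.33 to -0.07 (median -0.15) in M833, without overlap. It fell by 0.33 ± 0.05. Leaving out WT replicates 1, 2, 5 and 6 gave -0.22, and leaving out the other 4 WT arrays gave -0.44. Snx3, a retromer partner, fell by 0.25 ± 0.05 and Snx6, of the retromer-linked BAR nexins, by 0.19 ± 0.04, which was -0.12 without WT replicates 1, 2, 5 and 6. Vps26c, a subunit of the retriever complex, fell by 0.13 ± 0.03. In the other direction Snx29 rose by 0.37 ± 0.08, from a WT range of -0.16 to 0.33 (median -0.05) to an M833 range of 0.25 to 0.56 (median 0.43). It was at 0.21 when WT replicates 1, 2, 5 and 6 were left out and at 0.53 when the other 4 WT arrays were. Snx5, another BAR nexin, was higher by 0.12 ± 0.04, a call that did not hold with the sets as a random block (adjusted p = 0.163, limma), without WT replicates 3, 4, 7 and 8 (0.03, adjusted p = 0.516) or without any one of 11 arrays. The 4 subunits of the retromer core did not pass (0 called in limma, 2 at an unadjusted p under 0.05), with Vps26a at -0.06, Vps26b at -0.12, Vps29 at 0.02 and Vps35 at 0.10.

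The ESCRT machinery sorts ubiquitinated receptors into lysosomes. Its 6 genes that meet the naming rule gave 0 calls in limma. Their differences ran from -0.14 in Vps25 to 0.03 in Vps37c, and 2 of them had an unadjusted p under 0.05. This does not hold for all ESCRT genes. Of those in the partner list below, Chmp3 (-0.26), Chmp4b (-0.14) and Chmp5 (-0.19) were called lower and none was called higher. With the sets as a random block Chmp4b kept its call (adjusted p = 0.0313, limma), and Chmp3 (adjusted p = 0.0808) and Chmp5 (adjusted p = 0.156) did not. Among 19 genes with AP symbols 2 fell and 2 rose, with a median of -0.03. They include Ap1ar (0.06, not called), whose symbol meets the rule though it is not a subunit of the complexes. Ap3s1, of the AP-3 complex that sends cargo to lysosomes, fell by 0.17 ± 0.03, and the other 5 measured AP-3 genes did not pass. Ap1s2, of the AP-1 complex of the trans-Golgi, fell by 0.17 ± 0.03, a call lost with log ratios scaled between arrays (-0.09, adjusted p = 0.107, limma). Ap4s1, of AP-4, rose by 0.21 ± 0.05, also lost with that scaling (0.13, adjusted p = 0.0524). Ap2m1, the cargo-binding subunit of clathrin adaptor AP-2, was higher by 0.15 ± 0.04, and was at 0.08 without WT replicates 3, 4, 7 and 8 (adjusted p = 0.143) and not called with the random block (adjusted p = 0.0852). The lowest ratio to the reference among endolysosomal genes was that of Ap1m2, the epithelial form of the AP-1 medium chain, at -1.68 in WT and -1.55 in M833.

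The V-ATPase genes split within WT by the sets of arrays. Of 13 subunit genes 3 fell and 1 rose, with a median of -0.13. Atp6v1g1, of the stalk of the pump, ran from 0.16 to 0.80 (median 0.52) in WT and from 0.02 to 0.28 (median 0.19) in M833, a difference of -0.32 ± 0.09. Atp6v0e was at -0.24 ± 0.06 and Atp6v0d1, which couples the 2 domains of the pump, at -0.23 ± 0.07. The catalytic subunit Atp6v1a was at -0.27 ± 0.10 and did not pass (adjusted p = 0.058, limma). Without WT replicates 3, 4, 7 and 8 none of these 4 was called: Atp6v1g1 was at -0.10, Atp6v0e at -0.11, Atp6v0d1 at -0.07 and Atp6v1a at -0.03. The random block ended the calls of Atp6v1g1 (adjusted p = 0.0539, limma) and Atp6v0d1 (adjusted p = 0.131), and scaling between arrays those of Atp6v0e (-0.10, adjusted p = 0.362) and Atp6v0d1 (-0.16, adjusted p = 0.119). Without WT replicates 1, 2, 5 and 6, by contrast, 9 of the 13 were called lower, with Atp6v1g1 at -0.55, Atp6v1a at -0.51 and Atp6v0b at -0.44, while 20.1% of all features were called lower. The levels show the split directly. Atp6v1a lay at 0.86 or above on WT replicates 3, 4, 7 and 8, between 0.34 and 0.54 on the other WT arrays and between 0.22 and 0.59 in M833. In 5 of the 13 genes (Atp6v1g1, Atp6v1a, Atp6v0d1, Atp6v0b and Atp6v0a2) these 4 WT arrays lay above all 12 other arrays, as they did in 4.30% of all features. The mean over the 13 genes was 0.24 to 0.34 on these 4 arrays, 0.03 to 0.10 on the other WT arrays, 0.04 to 0.14 on M833 replicates 1, 2, 5 and 6 and -0.04 to 0.05 on M833 replicates 3, 4, 7 and 8. Atp6v1c1, a stalk subunit gene, was higher by 0.15 ± 0.04, a call lost with the sets as a random block (adjusted p = 0.082), in the absence of WT replicates 3, 4, 7 and 8 (adjusted p = 0.0535) and after scaling between arrays (adjusted p = 0.0943). The isoforms of the membrane subunit a with low ratios, Atp6v0a1 (0.00) and Atp6v0a4 (0.05), did not pass.

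**Figure D4:**
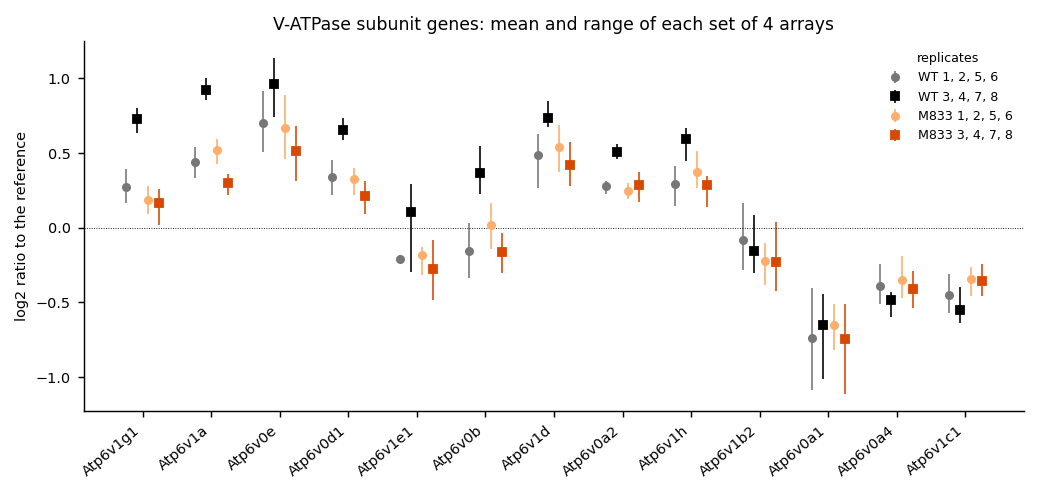
Log2 ratio to the reference (vertical axis) of the 13 V-ATPase subunit genes, with the mean (point) and range (bar) of each set of 4 arrays. WT replicates 3, 4, 7 and 8 stand above the other sets for most genes, as for Atp6v1a at 0.86 or above, while WT replicates 1, 2, 5 and 6 lie close to the M833 arrays.

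Some endolysosomal genes share a promoter element. The CLEAR element, the recognised site of the lysosomal regulator TFEB, was searched as the palindrome of 10 letters that stands in capitals in the stretches below and reads the same on both strands. The search covered the 250 bases before the start of 107 of the 137 genes with a RefSeq promoter (GRCm38.p6). It occurred in 5 of 67 endolysosomal genes (7.46%) and in 0 of 27 early secretory genes, against 0.73% of the 5751 array genes with a promoter and 0.27% of all 27025 promoters. The stretches, each with up to 20 bases on either side of the element, are shown because these letters set the 5 genes apart within the class. Vps26a has 2 entries.
Vps16, chr2:130424280-130424319, plus strand: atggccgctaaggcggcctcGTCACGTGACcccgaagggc
Vps33a, chr5:123573016-123573049, minus strand: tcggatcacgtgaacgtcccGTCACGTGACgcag
Vps26a, chr10:62486960-62487009, minus strand: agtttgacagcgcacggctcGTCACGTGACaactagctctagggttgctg
Vps26a, chr10:62486722-62486771, minus strand: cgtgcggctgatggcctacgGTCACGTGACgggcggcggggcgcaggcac
Rab21, chr10:115315594-115315643, minus strand: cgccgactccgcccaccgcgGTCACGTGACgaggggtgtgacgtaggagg
Rab5a, chr17:53479117-53479166, plus strand: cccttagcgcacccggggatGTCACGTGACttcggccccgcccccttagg
Of these 5 genes Rab21 (-0.30) and Vps33a (-0.15) fell, and Rab5a (0.00), Vps16 (0.09) and Vps26a (-0.06) did not pass the test. Whether their differences differ was not tested, and Rab5a took opposite calls by WT set, as given above. The element lay nearest the start in Vps33a, from 14 to 5 bases upstream, and in Vps16, from 20 to 11 bases upstream. A match describes the letters only.

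Set side by side over the arrays, the early secretory class lay above the endolysosomal class in its mean log2 ratio to the reference on all 16 arrays, by 0.03 to 0.22 (median 0.12) in WT and by 0.01 to 0.13 (median 0.07) in M833. The mean of the 34 early secretory genes had a lowest, median and highest value of 0.12, 0.21 and 0.28 in WT and of 0.04, 0.09 and 0.13 in M833. That of the 88 endolysosomal genes was 0.04, 0.07 and 0.15 in WT and -0.02, 0.02 and 0.04 in M833. Within WT the early secretory mean split by set, lying between 0.12 and 0.19 on replicates 1, 2, 5 and 6 but between 0.24 and 0.28 on the other 4 arrays. Without WT replicates 3, 4, 7 and 8 the median difference of early secretory genes was -0.036, with 13 lower and 6 higher, and that of endolysosomal genes -0.041, with 25 lower and 10 higher, against 21.8% of all features lower and 14.5% higher. Without WT replicates 1, 2, 5 and 6 the medians were -0.19 and -0.07, with 23 early secretory and 29 endolysosomal genes lower and 2 and 8 higher, against 20.1% and 13.8% of all features. The larger early secretory shift was therefore present against one set of WT arrays and not against the other. Of the 16 early secretory decreases 13 stayed called without WT replicates 3, 4, 7 and 8, and of the 18 endolysosomal decreases 14 did. The matching share over all called features was not taken. The median size of the log ratio, a measure of spread over all features, was 0.22 to 0.34 on the WT arrays and 0.19 to 0.28 on the M833 arrays. Its part in these differences was not tested.

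**Figure D5:**
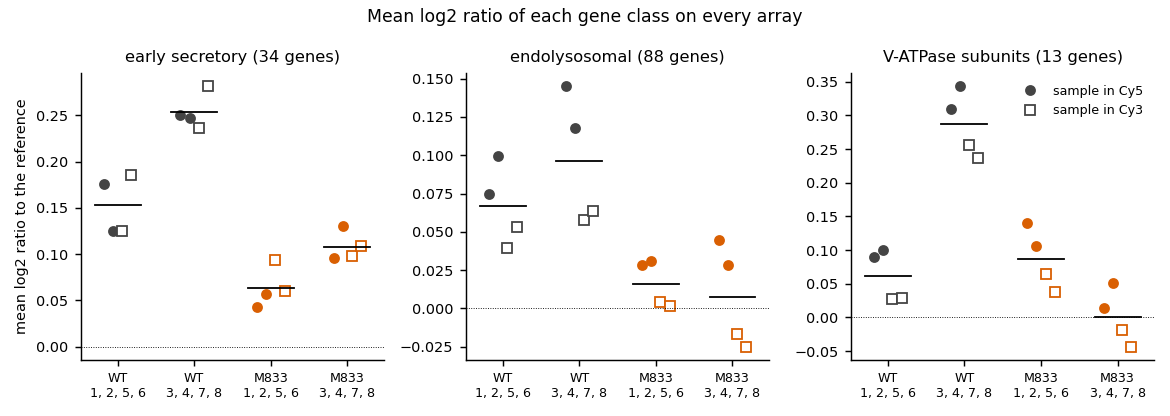
Mean log2 ratio to the reference (vertical axis) of early secretory genes, endolysosomal genes and V-ATPase subunit genes on every array, 1 point per array, in columns by cell type and set of replicates. The early secretory mean lies at 0.24 to 0.28 on WT replicates 3, 4, 7 and 8, at 0.12 to 0.19 on the other WT arrays and at 0.04 to 0.13 on the M833 arrays.

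Among the 15 genes of neither class 5 fell and 1 rose. Rab29, a Rab of the trans-Golgi and lysosomes that works with the kinase LRRK2, ran from 0.14 to 0.44 (median 0.29) in WT and from -0.14 to 0.15 (median -0.03) in M833. It fell by 0.30 ± 0.03, and the arrays lay apart within each dye orientation. The symbol patterns did not place it in the endolysosomal class, so the counts of that class leave it out. Rab13, of tight junctions and cell surface delivery, was at -0.27 ± 0.07, which was -0.15 without WT replicates 1, 2, 5 and 6 (adjusted p = 0.109, limma). Rab10, of exocytosis, was at -0.10 ± 0.03, and Rab3il1, an exchange factor, at -0.18 ± 0.05, or -0.10 (adjusted p = 0.178) without WT replicates 3, 4, 7 and 8. Rab3gap1, a subunit of an activating protein of Rab3 and an exchange factor of Rab18, was at -0.36 ± 0.11, with WT replicate 1 at 1.28 against at most 0.65 on the other WT arrays. Sec14l2, a lipid-binding protein gene whose symbol meets the rule though it is no coat subunit, was higher by 0.47 ± 0.16 at ratios below the reference throughout. Without WT replicates 1, 2, 5 and 6 Rab3gap1 was at -0.21 (adjusted p = 0.081, limma) and Sec14l2 at 0.27 (adjusted p = 0.283). With the sets as a random block Rab29 alone of these 6 kept its call.

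Across the 48 called members 7 kept their call in every fit made, other than the one with a single mean per set: Tmed9, Rab30, Rab32, Rab11fip5, Snx32, Vps41 and Rab29. Leaving out single arrays ended the calls of 8 members, Sec63, Sec11c, Atp6v0d1, Vps45, Snx5, Vps51, Rab3gap1 and Sec14l2, and 40 kept theirs in all 16 such fits. The share of all called features that kept their call was not taken, so these counts are not shown to be particular to the members. Of M833 replicates, number 1 decided Snx5, Vps51 and Rab3gap1, number 2 these 3 with Atp6v0d1 and Sec14l2, number 3 Sec11c and Sec14l2, number 4 Atp6v0d1, Snx5, Vps51, Rab3gap1 and Sec14l2, number 5 Snx5, Vps51 and Sec14l2, number 6 Sec63, Vps45, Snx5, Vps51 and Rab3gap1, number 7 all of the 8 but Sec11c, and number 8 Atp6v0d1, Snx5 and Vps51. Of WT replicates, numbers 1, 2 and 5 decided Vps45 and Sec14l2, number 6 Sec14l2, number 3 all but Vps45 and Rab3gap1, number 4 Sec63, Atp6v0d1, Snx5 and Vps51, number 7 these 4 with Sec11c, and number 8 these 5 with Sec14l2. The differences in these fits ran from -0.17 to -0.15 for Sec63, about -0.15 for Sec11c, -0.22 to -0.19 for Atp6v0d1, -0.11 to -0.10 for Vps45, 0.10 to 0.12 for Snx5, 0.09 to 0.13 for Vps51, -0.35 to -0.32 for Rab3gap1 and 0.36 to 0.48 for Sec14l2, with adjusted p from 0.0503 to 0.0901 (limma). Centring each array on its median ended 7 calls, those of Sec63, Sec11c, Atp6v0d1, Rab11b, Vps45, Rab3il1 and Rab10, with adjusted p from 0.0509 to 0.0857. No called member changed sign in any fit. An interaction of dye orientation with cell type was called for 0 of the 137 members (4 at an unadjusted p under 0.05) and for 0 features (361 at an unadjusted p under 0.05) in limma.

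Genes that work with the members but fall outside the naming rule were also lower more often than higher. Over all features 15.9% were lower and 10.0% higher. Of 42 measured partners of the early steps 19 fell (45.2%), none rose and the median was -0.12. The largest among called genes were Bcap31, a cargo receptor of the ER (-0.32), Surf4, a receptor for soluble cargo (-0.32), Ssr4, of the translocon-associated complex (-0.32), and Mcfd2, the partner of the lectin Lman1 (-0.31). Srp14, of the signal recognition particle, had a larger difference of -1.76 that did not pass (adjusted p = 0.338, limma), with WT replicate 2 at 11.7 and the other WT arrays between 0.04 and 1.14. Of 42 measured endolysosomal partners 18 fell (42.9%) and 2 rose, the adaptors Gga2 (0.21) and Gga3 (0.14), with a median of -0.12. The tetraspanin gene Cd63 (-0.36), the Rab acceptor gene Rabac1 (-0.35), Ehd4, of endosomal tubules (-0.34), and Igf2r, encoding the large mannose 6-phosphate receptor (-0.31), were the largest decreases among called genes, while the SNARE gene Vamp3, at -0.69, did not pass (adjusted p = 0.388, limma) and had WT replicate 2 at 5.02. Thus the partners of the endolysosomal members had a higher share lower in M833 than the members themselves, at 42.9% against 20.5%, a difference that was not tested. Without WT replicates 3, 4, 7 and 8 Surf4 was at -0.21 (adjusted p = 0.121, limma), Ehd4 at -0.15 (adjusted p = 0.0986) and Gga2 at 0.11 (adjusted p = 0.22). Kdelr2 was then at -0.13 (adjusted p = 0.149, limma). Chmp5, Clta, Golga2, Napa, Pdcd6ip and Srp54a were not called in that fit either. Gga3 was at 0.08 (adjusted p = 0.1, limma) when WT replicates 1, 2, 5 and 6 were left out, and Gdi2, Tfg and Vamp8 also lost their calls. Lman1 was not called in the absence of either WT set (adjusted p = 0.0691 and 0.134, limma). After scaling between arrays Cd63 was at -0.14 (adjusted p = 0.332, limma). The same scaling ended the calls of the early partners Surf4 (adjusted p = 0.126), Kdelr2 (adjusted p = 0.18), Srp9, Srp54a and Ssr3. Among endolysosomal partners it also ended those of Gga2 (adjusted p = 0.0857), Lamp2, Gdi2, Napa, Chmp5, Pdcd6ip and Vti1b. With the random block 11 early partners and 9 endolysosomal partners were lower and none was higher, against 7.08% of all features lower and 4.40% higher. Surf4, Gga2 and Gga3 were among the calls it ended, with Lman1 (adjusted p = 0.237, limma), Kdelr2 (adjusted p = 0.0945) and Nsf (adjusted p = 0.0525).

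The marker lists of macrophages, fibroblasts and epithelial cells did not move alike. All 7 measured macrophage markers of 21 listed fell, with a median of -0.86, from -1.67 in the lysozyme gene Lyz2 to -0.55 in the complement gene C1qc. Their mean log2 ratio to the reference lay between -0.46 and -0.28 in WT and between -1.60 and -1.29 in M833. The defining markers Csf1r, Cd68, Adgre1 and Ptprc had no probe under these symbols. In bulk samples such as these, fewer cells of a type and less RNA per cell cannot be told apart. Of 8 measured fibroblast markers 5 fell and none rose, and 2 of them, Col1a2 and Col3a1, were still called with the random block. Of the 5 that fell 4 stayed called without WT replicate 2 or 5, or without M833 replicate 1, 2, 3, 6 or 7. The same 4 stayed called without WT replicates 3, 4, 7 and 8, where Lum was not called (adjusted p = 0.0618, limma). Without WT replicates 1, 2, 5 and 6 neither Lum (adjusted p = 0.0505, limma) nor Vim (-0.13, adjusted p = 0.126) was called. Col1a1, Col1a2 and Col3a1 stayed called in that fit. Vim and Pdgfrb lay above the reference in WT, at 1.04 and 1.12, whereas Dcn and Lum lay below it, at -2.56 and -2.41. Of 6 measured epithelial markers 0 were called in limma and 3 had an unadjusted p under 0.05, and all lay below the reference, Krt8 at -3.11 in WT. The part of these markers in the differences of the vesicle traffic genes was not tested.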

How the data were processed

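The values are log2 ratios of sample to common reference, taken here as log2 from their range and deposited by the authors after normalisation of two-colour arrays. Limma was used for them per the submitters' processing notes, which give no version. Background correction, normalisation method, centring and filters: not given in the sources used here. No channel intensities were used, and dim probes were therefore kept. The direction, sample over reference, rests on the titles.

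Of 15247 probes 9600 had 1 symbol, 214 several and 5433 none. Probes of one gene were averaged, which gave 12761 features, 7114 of them named, with several probes for 33 of the 137 members. In 11 members, none of them called, probes differed in sign: Ap1g1, Ap1m2, Ap2a2, Ap3m1, Rab12, Rab5a, Sec22b, Sec24a, Vps11, Vps26a and Vps37a.

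All features were fitted on 16 arrays (limma 3.58.1, lmFit then eBayes, under R 4.3.3) in a model of cell type plus dye orientation, and called at a Benjamini-Hochberg adjusted p under 0.05. The fit was tested on simulated arrays with independent noise. It recovered 58% of differences of 0.25 and 94% of those of 0.5, with 10 false calls. That noise holds no sets of arrays, so the simulation does not test how sets affect the calls. Replicates were numbered in series order. The members, classes, partner and marker lists, sets of arrays and alternatives were chosen with earlier results of these data known. Members named with values are, per subgroup, up to 5 called lower and 3 called higher, the extremes of each class against the reference and members with disagreeing probes, with other members added after their values were seen. Array medians lay between -0.02 and 0.07, and WT replicate 2 held 49 values above 8. The number of arrays limits the precision.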

Additional observations from a re-analysis of the deposited data

Results flagged for a closer look

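In 14 of 274 groups of 8 arrays (5.11%), 1 array lay far from the others, with a gap to its nearest neighbour that passed Dixon's criterion for 8 values. Chance alone flags about 1 group in 20. In WT the highest arrays were Ap1s1 at 2.001 on replicate 6, Rab1b at 1.23 and Vps16 at 0.80 on replicate 2, and Rab3gap1 at 1.28 and Vps26a at 0.78 on replicate 1. The lowest in WT were Sec24d at -1.11 on replicate 2 and Ap1m1 at -0.45 on replicate 7. In M833 the highest arrays were Ap1s1 at 1.44 and Rab8a at 0.41 on replicate 4 and Ap3b2 at 0.78 and Vps37c at 0.46 on replicate 3. The lowest in M833 were Rab1b at -0.64 on replicate 2, Sec14l4 at -1.14 on replicate 8 and Snx32 at -0.33 on replicate 6. Of these 12 genes Rab3gap1 and Snx32 were called between the cell types, and WT replicate 2, the array with extreme values elsewhere, held 3 of the 14.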

How the results depend on the processing

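No called member changed sign under any alternative, and the counts moved with how many arrays were used and how they were grouped. All features called, vesicle traffic genes lower and higher, and early secretory and endolysosomal genes called in either direction numbered 3301, 39, 9, 18 and 24. They were 2000, 21, 3, 9 and 12 without a dye term, 835, 12, 0, 7 and 4 on Cy5 arrays alone, and 1100, 13, 3, 7 and 8 on Cy3 arrays alone. With sets of 4 arrays as a random block they were 1465, 25, 4, 13 and 15. With each set of 4 reduced to its mean limma called 0 in each of them, with 1675 features and 24 members at an unadjusted p under 0.05. Without M833 replicates 1, 2, 5 and 6 they were 1685, 21, 4, 10 and 14, and without M833 replicates 3, 4, 7 and 8 1858 features, 22 lower, 3 higher and 9 endolysosomal genes. Calls lost in the first of these fits included those of Copg1, Sec31a and Rab21, and in the second those of Snx29 and Rab21. Without WT replicates 1, 2, 5 and 6, 37 endolysosomal genes were called and the early secretory median was -0.19. Without WT replicates 3, 4, 7 and 8, 17 vesicle traffic genes were higher and the class medians were -0.036 and -0.041. Leaving out single arrays gave 2878 to 3295 features, 36 to 43 lower, 6 to 9 higher, 16 to 21 early secretory and 21 to 26 endolysosomal genes, with medians of -0.15 to -0.13 and -0.09 to -0.07. Centring each array on its median gave a split over all features of 1598 higher and 1577 lower, beside 1276 and 2025, and left 32 vesicle traffic genes lower and 10 higher. With log ratios scaled between arrays 38 were lower and 11 higher. No paired analysis was possible because the labels give no replicate numbers. Setting extreme values missing, robust moderation, single probes and omitting the 3 M833 arrays whose slide numbers form another series moved no count by over 1.5 times. The smallest called difference among members was 0.10 in size on the log2 scale, while uncalled differences reached 0.41. A member that was not called is therefore not shown to be unchanged.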

Other observations

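Further promoter elements were searched in the same windows. The E-box CACGTG, which lies within the CLEAR element, occurred in the 250 upstream bases of 12 of 67 endolysosomal genes (17.9%), among them the V-ATPase genes Atp6v0b and Atp6v1a, and of 3 of 27 early secretory genes (11.1%), Sec23ip, Sec62 and Tmed10, and of 3 of 13 genes of neither class (23.1%), Rab27a, Rab3gap2 and Rab3il1. It occurred in 10.9% of the array genes with a promoter. The ER stress element, which is CCAAT and CCACG with 9 bases between them, searched on both strands, was found in 0 of the 107 members with a promoter and in 0.278% of array genes. The letters TGACGTGG, linked to the ER stress factor XBP1 and searched likewise, were found in Sec24d alone among the members and in 0.922% of array genes. No match says only that these letters are not in the window.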
